A study of Homo sapiens with 4 samples.

Results

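The genes described are those of the human immunoglobulin loci together with JCHAIN, the joining chain of secreted IgA and IgM, in 2 multiple myeloma lines. They were chosen by name and by level. Of 60612 genes in the deposited tables, 412 carry a name with an immunoglobulin heavy, kappa or lambda prefix or are JCHAIN, and the 28 of these at 1 FPKM or more in any library are the members. FPKM counts fragments scaled by transcript length and by library size. Of the other 384 names, 359 were listed at the deposited floor of 0.0001 FPKM or below in all 4 libraries. IGHMBP2, a DNA and RNA helicase gene that only shares the prefix, counts among the 28 and was left out of every sum. It had 3.71 and 3.55 FPKM in the H929 libraries labelled after and before sorting, and 2.26 and 2.07 FPKM in the KMS28BM libraries. Because levels chose the members, their levels are given as a description without a test.

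The 4 libraries were 1 each of H929 after sorting, H929 before sorting, KMS28BM after sorting and KMS28BM before sorting. H929 and KMS28BM are established human multiple myeloma lines, and H929 is documented as an IgA kappa line. The series title appears to name as not sorted the libraries whose labels place them after sorting. Groups follow the sample labels, and with the title's reading every after-to-before direction would be inverted. No treatment or time is given, the sorting was by microfluidic chip per the series title, and each line stands for 1 tumour.

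A plasma cell makes its antibody heavy chain from a V, a D and a J segment of the IGH locus joined to a constant gene, and its light chain from a V and a J segment joined to a constant gene of the kappa or the lambda locus. The heavy chain constant gene sets the isotype, such as IgA1 or IgG1. Plasma cells usually transcribe light chain genes of only 1 type, because productive rearrangement at one locus normally stops it at the others. In myeloma all tumour cells descend from 1 plasma cell, so V and constant genes are expected to be dominated by that clone's choice. Some myelomas secrete light chains without a heavy chain.

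The segments that led each locus are shown first, as reference sequences from GENCODE release 29 on GRCh38, matched by gene ID. No source used here states the build of the deposited tables, and these are germline letters rather than the clones' own rearranged sequences. The leading light chain V genes were IGKV1-6 in H929 (chr2:88966262-88966441, minus strand) and IGLV3-10 in KMS28BM (chr22:22812102-22812281, plus strand). The last 180 bases of the second exon of each are printed, with capitals from the codon of the conserved second cysteine to the 3′ end, the germline part of the third complementarity determining region with the cysteine before it.
IGKV1-6: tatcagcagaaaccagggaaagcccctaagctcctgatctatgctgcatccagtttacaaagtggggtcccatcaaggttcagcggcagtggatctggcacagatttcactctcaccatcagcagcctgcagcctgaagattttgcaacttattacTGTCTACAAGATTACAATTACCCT
IGLV3-10: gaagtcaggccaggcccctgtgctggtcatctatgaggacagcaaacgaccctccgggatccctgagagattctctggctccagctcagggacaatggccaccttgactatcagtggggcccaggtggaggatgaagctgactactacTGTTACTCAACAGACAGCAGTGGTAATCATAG

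The heavy chain V signal of H929 was split between IGHV1-69D (chr14:106762094-106762198, minus strand) and IGHV1-69 (chr14:106714684-106714788, minus strand), a gene and its duplicate. Over 305 aligned bases of their second exons they differ at 1 base, which is the capital in each of these windows of 105 bases.
IGHV1-69D: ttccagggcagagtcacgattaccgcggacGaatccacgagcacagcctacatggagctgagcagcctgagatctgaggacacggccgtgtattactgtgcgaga
IGHV1-69: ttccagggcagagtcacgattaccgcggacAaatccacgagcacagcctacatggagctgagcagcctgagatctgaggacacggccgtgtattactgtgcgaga

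The lambda constant signal of KMS28BM was split between IGLC3 (chr22:22906342-22906401) and IGLC2 (chr22:22900976-22901035), and is set here beside their neighbour IGLC1 (chr22:22895375-22895434), all on the plus strand. The first 60 coding bases of each are printed, with the 7 positions that differ among the 3 genes in capitals. IGLC3 and IGLC2 differ at 1 of these 60 bases and at 3 of their 317 coding bases. IGLC1 differs from IGLC2 at 15 coding bases and from IGLC3 at 16.
IGLC3: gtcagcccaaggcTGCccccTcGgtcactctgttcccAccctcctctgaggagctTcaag
IGLC2: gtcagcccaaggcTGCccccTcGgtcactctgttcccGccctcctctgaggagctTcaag
IGLC1: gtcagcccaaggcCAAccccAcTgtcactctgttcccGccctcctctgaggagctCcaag

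The alpha constant genes that carried the H929 heavy chain, IGHA1 and IGHA2, are best told apart at the hinge, where IGHA1 holds 39 bases that IGHA2 lacks. The hinge region is shown for IGHA1 (chr14:105708073-105708144, minus strand), with the 39 bases in capitals, and for IGHA2 (chr14:105587842-105587874, minus strand). The aligned coding parts outside this insertion differ at 40 of 1020 bases.
IGHA1: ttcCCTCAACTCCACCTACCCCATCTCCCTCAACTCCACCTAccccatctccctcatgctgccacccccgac
IGHA2: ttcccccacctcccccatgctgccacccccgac

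Depth, read from the worth of 1 fragment in each library's FPKM, was 22.9 and 24.9 M fragments in H929 after and before sorting, and 23.4 and 21.2 M in KMS28BM. With 1 library per group no value has a replicate error. Whether the tables of the 2 lines were scaled together is not given, so no test was made across lines and levels set across them carry that limit. In the T cell list all 7 genes stayed under 1 FPKM in every library, with CD3D, CD3G and TRBC2 listed at the floor throughout. Of 11 plasma cell markers, 10 reached 1 FPKM in each line. SDC1, which encodes the plasma cell surface protein CD138, had 76.0 and 73.0 FPKM in H929 after and before sorting and 148 and 187 FPKM in KMS28BM. CD27 was the exception, at 0.129 and 0.507 FPKM in H929 after and before sorting and at the floor in KMS28BM. SLAMF7 was low in H929, at 1.15 and 2.25 FPKM, against 52.5 and 34.5 FPKM in KMS28BM. PAX5 and CD79B, markers of earlier B cells, were listed at the floor in all 4 libraries. Other genes of the 11 in the mature B cell list were present: 2 reached 1 FPKM in H929 and 4 in KMS28BM. The highest were BACH2, at 1.47 and 3.44 FPKM in H929 after and before sorting, and CR2, at 7.25 and 4.41 FPKM in KMS28BM.

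Both lines were dominated by a few immunoglobulin genes, but by different ones. Members at 1 FPKM or more numbered 23 and 21 in H929 after and before sorting, and 11 and 12 in KMS28BM. Taking either library of a line, 24 members were measured in H929 and 12 in KMS28BM, with 8 of the 28 in both. IGHMBP2, which is not an immunoglobulin gene, is counted in the 24, the 12 and the 8. Among all genes, 12294 passed this 1 FPKM minimum somewhere, 11083 of them in H929 and 10472 in KMS28BM. Most of all such genes were thus measured in both lines, unlike the members. In H929 the leading genes were IGKC, IGHA1, IGKV1-6 and IGHV1-69D. In KMS28BM the leading genes were IGLC3, IGLC2 and IGLV3-10, and no heavy chain gene exceeded 7.35 FPKM.

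**Figure D1:**
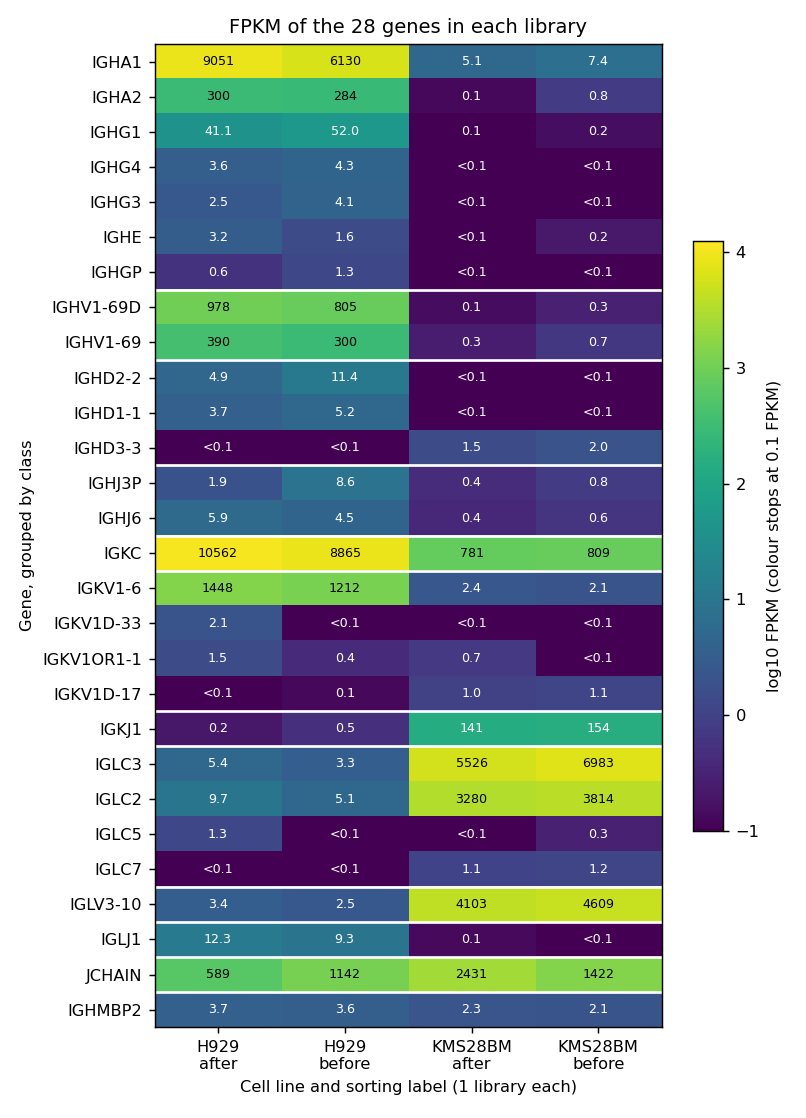
Heat map of the FPKM of the 28 genes (rows, grouped by class) in the 4 libraries (columns), coloured by log10 FPKM with the value printed in each cell and 1 library per column. H929 is high for IGHA1 and IGKC, at 9051 and 10562 FPKM after sorting, and KMS28BM for IGLC3, at 5526 FPKM after sorting.

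IGHA1 (ENSG00000211895), the constant gene of IgA1, had 9051 and 6130 FPKM in H929 after and before sorting, against 5.05 and 7.35 FPKM in KMS28BM. It ranked 2 and 8 among all genes of the H929 libraries. IGHA2 (ENSG00000211890), the constant gene of IgA2, had 300 and 284 FPKM in H929, against 0.131 and 0.768 FPKM in KMS28BM. IGHA1 thus held 96.8% and 95.6% of the alpha constant FPKM in H929 after and before sorting. The genes share 32.5% of IGHA1's 50-base words, so part of the IGHA2 value could be reads of IGHA1 assigned to it, which was not tested.

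The other heavy chain constant genes were low. IGHG1 (ENSG00000211896), the IgG1 gene, had 41.1 and 52.0 FPKM in H929 after and before sorting, and 0.105 and 0.155 FPKM in KMS28BM. IGHG4 had 3.57 and 4.34 FPKM, IGHG3 had 2.55 and 4.11 FPKM, and the IgE gene IGHE had 3.19 and 1.56 FPKM in the same H929 libraries. IGHM and IGHD, the constant genes of IgM and IgD that naive B cells use, were listed at the floor in all 4 libraries. Alpha genes made up 99.5% and 99.0% of the heavy chain constant FPKM in H929 after and before sorting, and IgA is the isotype documented for the line. In KMS28BM the whole heavy chain constant class summed to 5.31 and 8.55 FPKM, so no isotype could be read from it: 97.7% and 94.9% of that small sum was alpha.

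Among 150 IGHV names, 2 reached 1 FPKM in H929 and 0 in KMS28BM. IGHV1-69D (ENSG00000280411) had 978 and 805 FPKM in H929 after and before sorting, against 0.149 and 0.288 FPKM in KMS28BM. IGHV1-69 (ENSG00000211973) had 390 and 300 FPKM in H929, against 0.254 and 0.683 FPKM in KMS28BM. IGHV1-69D held 71.5% and 72.8% of the pair in H929, a split nearly the same in both libraries. Since 78.5% of the 50-base words of IGHV1-69D also occur in another gene, and the windows above differ at 1 base, the pair is better read as 1 signal of 1368 and 1105 FPKM. The next IGHV name in H929, the pseudogene IGHVII-1-1, had 0.619 FPKM before sorting and was listed at the floor after sorting.

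The D and J segments, which lie between V and C in a rearranged gene, gave little signal of their own. IGHD2-2 had 4.87 and 11.4 FPKM in H929 after and before sorting, IGHD1-1 had 3.68 and 5.18 FPKM, and both were at the floor in KMS28BM. IGHJ6 had 5.88 and 4.49 FPKM and the J pseudogene IGHJ3P had 1.90 and 8.58 FPKM in the same H929 libraries. IGHD3-3 was the exception in direction, at 1.52 and 2.05 FPKM in KMS28BM and at the floor in H929. These segments have 17 to 61 annotated bases, so such values stand for few fragments: the 8.58 FPKM of IGHJ3P is the worth of 10.7 fragments and the 1.52 FPKM of IGHD3-3 that of 1.10.

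IGKC (ENSG00000211592), the only kappa constant gene, had 10562 and 8865 FPKM in H929 after and before sorting and ranked 1 and 2 among all genes of those libraries. In KMS28BM it still had 781 and 809 FPKM and ranked 56 and 58 of all genes. No other gene shares a 50-base word with it. The V gene that goes with it in H929, IGKV1-6 (ENSG00000239855), had 1448 and 1212 FPKM after and before sorting. It held 99.7% and 99.9% of the FPKM of 103 IGKV names in H929. Of its 50-base words, 34.4% also occur in other genes, 17.5% in IGKV1-17.

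KMS28BM showed kappa constant signal without a kappa V gene to match. IGKV1-6 had 2.40 and 2.09 FPKM there after and before sorting, and IGKV1D-17 had 0.985 and 1.14 FPKM. The kappa V genes summed to 0.00522 and 0.00398 of IGKC in KMS28BM, where the same ratio in H929 was 0.137 and 0.137. KMS28BM did have signal at a kappa J segment: IGKJ1 (ENSG00000211597) stood at 141 and 154 FPKM after and before sorting, against 0.217 and 0.481 FPKM in H929. That is 18.0% and 19.0% of the IGKC level, and IGKJ2 to IGKJ5 were listed at the floor in all 4 libraries. IGKJ1 has 38 bases (chr2:88861886-88861923, minus strand) and its KMS28BM values are the worth of 126 and 124 fragments. Its germline letters are given because it is the J segment nearest to the V genes and the only one with signal.
IGKJ1: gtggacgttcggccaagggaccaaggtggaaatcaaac

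The lambda locus was the reverse. IGLC3 (ENSG00000211679) had 5.41 and 3.29 FPKM in H929 after and before sorting, against 5526 and 6983 FPKM in KMS28BM. IGLC2 (ENSG00000211677) had 9.69 and 5.11 FPKM in H929, against 3280 and 3814 FPKM in KMS28BM. IGLC3 held 62.8% and 64.7% of the KMS28BM sum of the pair after and before sorting, and 35.8% and 39.1% of the small H929 sum. With 58.1% of their 50-base words in common, the pair is again better read as 1 signal, of 8806 and 10797 FPKM in KMS28BM. IGLC7, a lambda constant gene farther along the locus, had 0.0985 and 0.0875 FPKM in H929 and 1.07 and 1.18 FPKM in KMS28BM, and IGLC6 was at the floor in all 4 libraries.

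The lambda V gene was IGLV3-10 (ENSG00000211669), with 3.38 and 2.50 FPKM in H929 after and before sorting, against 4103 and 4609 FPKM in KMS28BM. It held 99.98% and 99.99% of the FPKM of 76 IGLV names in KMS28BM. Only 2.40% of its 50-base words occur elsewhere, so of the leading V genes it is the one least open to misassigned reads. IGLV3-10 stood at 0.466 and 0.427 of the lambda constant FPKM in KMS28BM. The corresponding H929 ratios of V to constant FPKM were 0.145 and 0.171 for the heavy chain and 0.137 and 0.137 for kappa, so lambda V signal in KMS28BM was the higher relative to its constant genes.

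H929 had lambda-related signal of another kind. IGLL5 (ENSG00000254709, chr22:22887780-22896107, plus strand), which encodes a lambda-like polypeptide and does not need rearrangement, had 1882 and 1666 FPKM in H929 after and before sorting, against 17.7 and 22.4 FPKM in KMS28BM. It is not a member by name and stood in a list fixed with the design. IGLC1, whose 317 coding bases are held whole by all 3 annotated IGLL5 transcripts, had 0.0134 and 0.0144 FPKM in H929. IGLJ1, which gave 12.3 and 9.33 FPKM in H929 and 0.135 and 0.0539 FPKM in KMS28BM, shares 97.4% of its 50-base words with IGLL5. Its last 38 coding bases (chr22:22893781-22893818, plus strand) lie in 2 of the 3 IGLL5 transcripts and are printed because a transcript joined to IGLC1 and one of IGLL5 would share them.
IGLJ1: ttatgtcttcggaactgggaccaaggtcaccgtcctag

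Over the bases of IGLC1, transcripts of IGLL5 and lambda transcripts with IGLC1 cannot be told apart, since 100% of its 50-base words occur in IGLL5. A rearranged lambda transcript also carries a V segment. The 76 IGLV names summed to 3.39 and 3.60 FPKM in H929 after and before sorting, against 1882 and 1666 FPKM for IGLL5. Which kind of transcript gave the IGLL5 signal was not tested. The relatives of IGLL5 in the surrogate light chain of B cell precursors were low: IGLL1 reached at most 0.0422 FPKM, VPREB1 was at the floor throughout, and VPREB3 had 0.759 and 1.73 FPKM in H929 and 0.628 and 0.583 FPKM in KMS28BM.

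JCHAIN (ENSG00000132465), which links IgA into dimers and IgM into pentamers, was high in both lines. It had 589 and 1142 FPKM in H929 after and before sorting, against 2431 and 1422 FPKM in KMS28BM. Relative to the heavy chain constant genes this was 0.0626 and 0.176 in H929 and 458 and 166 in KMS28BM. The KMS28BM ratios rest on a heavy chain sum of 5.31 and 8.55 FPKM. The line with almost no heavy chain signal had the higher JCHAIN level, but by little before sorting: H929 stood at 24.2% of KMS28BM after and 80.3% before sorting. Whether the tables of the lines share a scale is not given. No 50-base word of JCHAIN occurs in another gene.

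The balance of light to heavy chain was near 1 in H929 and far from it in KMS28BM. Light chain constant FPKM divided by heavy chain constant FPKM came to 1.13 and 1.37 in H929 after and before sorting, and to 1807 and 1357 in KMS28BM. The KMS28BM ratio rests on a denominator of 5.31 and 8.55 FPKM, so its size is that of a near absence of heavy chain. Kappa made up 99.8% and 99.9% of light chain constant FPKM in H929, and 8.15% and 6.97% in KMS28BM. With IGLL5 counted as lambda, an alternative chosen with the data in view, the kappa share in H929 was 84.8% and 84.1%. Because the light to heavy ratio is formed within a library, it does not depend on how the tables were scaled, but it does depend on length: with FPKM multiplied by transcript length, the H929 ratio was 0.447 and 0.542.

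The 27 immunoglobulin and JCHAIN members together took 7.01% and 5.70% of the summed FPKM in H929 after and before sorting, and 4.71% and 4.90% in KMS28BM. In H929 the heavy chain members accounted for 3.23% and 2.30%, the kappa members for 3.60% and 3.04%, the lambda members for 0.00961% and 0.00614%, and JCHAIN for 0.176% and 0.345%. In KMS28BM the heavy chain members accounted for 0.00232% and 0.00356%, kappa for 0.268% and 0.266%, lambda for 3.73% and 4.24%, and JCHAIN for 0.703% and 0.391%. FPKM weights short transcripts up. As a share of estimated fragments the members took 1.99% and 1.58% in H929 after and before sorting. In KMS28BM they took 0.955% and 0.924%, where the direction is the opposite of that in summed FPKM. JCHAIN was the worth of 81928 of 223965 member fragments in KMS28BM after sorting and of 43462 of 196289 before. Of the leading chain genes there, IGLC3, IGLC2 and IGLV3-10 were the worth of fewer fragments after sorting. IGKC was the worth of more, at 9580 and 8996, so the reversed direction goes with JCHAIN. In bulk samples such as these, a change in the number of cells that transcribe a gene and a change in RNA per cell cannot be told apart.

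**Figure D2:**
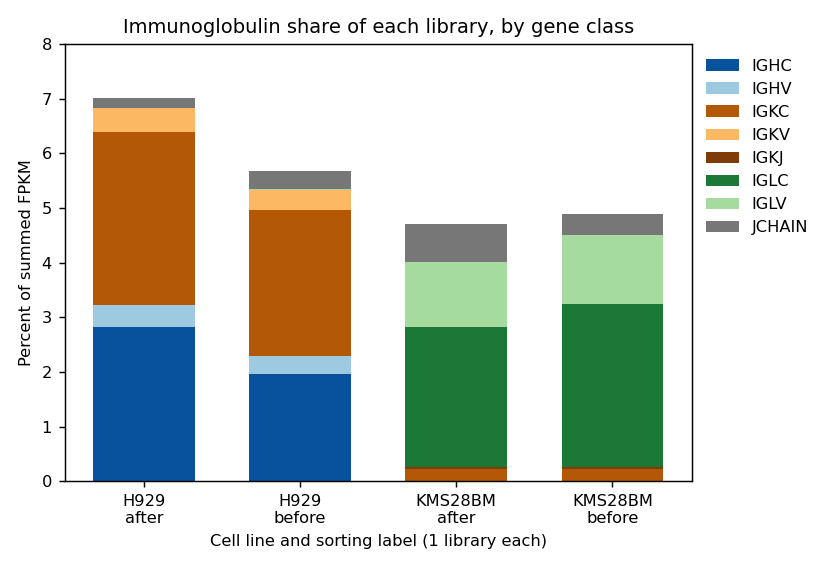
Stacked bars of the percent of summed FPKM (vertical axis, from 0) taken by each gene class in the 4 libraries (horizontal axis, 1 library per bar). H929 is made up of IGHC, IGKC and V genes of both loci, and KMS28BM of IGLC and IGLV with JCHAIN (0.703% and 0.391% after and before sorting) and a thinner IGKC band, with totals of 7.01%, 5.70%, 4.71% and 4.90% from left to right.

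Each line also carried traces of the other line's leading genes. Over both libraries of a line, the mean IGHA1 level in KMS28BM was 0.0817% of that in H929, that of IGKV1-6 was 0.169% and that of IGHV1-69D and IGHV1-69 summed was 0.0555%. The summed pair stood at 0.0294% after and 0.0878% before sorting, on the worth of a few fragments in KMS28BM. In the other direction, the mean in H929 as a share of that in KMS28BM was 0.0695% for IGLC3, 0.0676% for IGLV3-10 and 0.209% for IGLC2. The traces amounted to the worth of 155 and 205 fragments of IGHA1 in KMS28BM after and before sorting, and to that of 57.2 and 37.8 fragments of IGLC3 in H929. Of 197 genes at a mean of 300 FPKM or more in a line, 9 were members. In the other line 13 of the 197 stood under 1% of that mean, and 7 of these 13 were members. The 7 hold the pairs IGHV1-69D with IGHV1-69 and IGLC3 with IGLC2, each better read as 1 signal. Members were chosen by level with results of these data known, so nothing is read from this count. Where the traces came from was not tested. The IGKC level of KMS28BM was of another order, at 8.19% of the H929 mean, while IGKV1-6 in the same libraries was at 0.169%.

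Within H929, library labelled after sorting over library labelled before, most abundant members stood slightly higher. IGHA1 had a log2 ratio of FPKM plus 1 of 0.56, IGKC 0.25, IGKV1-6 0.26, IGHV1-69D 0.28, IGHV1-69 0.37 and IGHA2 0.07, so 6 of the 7 members above 100 FPKM were above 0. JCHAIN was the exception at -0.95. IGHG1, at a lower level, had -0.33. The median over 24 measured members was 0.27, where over all measured genes it was -0.11. Of these members, IGKV1D-33, IGLC5 and IGKV1OR1-1 reached 1 FPKM in H929 only after sorting, and IGHGP only before. IGHMBP2 is also counted, so nothing is read from this median.

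At 2-fold or more, 2 of 24 members were higher in H929 after sorting, against 1.59% of the 11083 genes measured, and 2 were lower, against 5.17%. The higher ones were IGKV1D-33, with 2.14 FPKM after and 0.0400 FPKM before sorting, and the lambda constant pseudogene IGLC5, with 1.25 FPKM after sorting and the floor before. Both passed the 1 FPKM minimum in H929 only through the library in which they were higher, so nothing is read from this count. The lower ones were IGHJ3P at a log2 ratio of -1.72 and IGHD2-2 at -1.08. None of the 4 was abundant: they were the worth of 21.5, 8.39, 2.17 and 3.46 fragments after sorting, in the order named, and 86.5% of the words of IGKV1D-33 occur in IGKV1-33. The next ratios on the high side were 0.84 for the kappa orphon IGKV1OR1-1 on chromosome 1, 0.81 for IGLC2 and 0.71 for IGHE. JCHAIN was next on the low side, followed by -0.53 for IGHG3 and -0.52 for the pseudogene IGHGP. IGKV1OR1-1 had 1.54 and 0.413 FPKM after and before sorting, and 83.2% of its words occur in IGKV1OR2-118. IGHGP had 0.571 and 1.25 FPKM. Each of these also passed the minimum in H929 only through the library in which it was higher.

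Within KMS28BM the abundant chain genes stood slightly lower after sorting. The log2 ratio was -0.34 for IGLC3, -0.22 for IGLC2, -0.17 for IGLV3-10, -0.05 for IGKC and -0.12 for IGKJ1, and JCHAIN was the exception at 0.77. Of the 12 measured members, 0 were 2-fold or more higher, against 4.13% of the 10472 genes measured, and 0 were 2-fold or more lower, against 1.12%. The median over the 12 members was -0.12, where over all measured genes it was 0.12. IGKV1D-17 reached 1 FPKM in this line only before sorting and IGHMBP2 is counted, so nothing is read from this median. The other measured members lay between -0.46 for IGHA1 and 0.14 for IGKV1-6, so no member other than JCHAIN moved by as much as the 1.5-fold alternative.

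**Figure D3:**
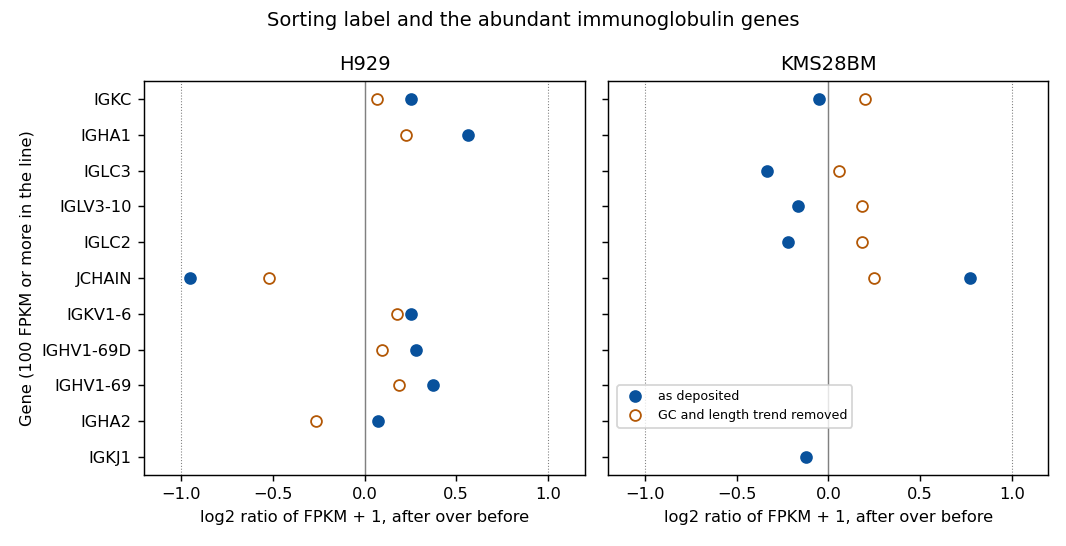
Log2 ratio of FPKM plus 1, library labelled after over library labelled before sorting (horizontal axes), for members at 100 FPKM or more in H929 (left) and KMS28BM (right), as deposited (filled) and after a trend in GC content and length was removed (open), 1 library per group. JCHAIN lies at -0.95 in H929 and 0.77 in KMS28BM as deposited, and at -0.52 and 0.25 with the trend removed; dotted lines mark 2-fold.

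The ratios of all genes followed the GC content of their transcripts, in opposite directions in the lines. Across genes, which are not independent replicates, Spearman's rho of the ratio with GC content was 0.54 over 9262 protein-coding genes in H929 and -0.73 over 8922 in KMS28BM. JCHAIN is a low-GC transcript at 35.8%, where the median was 49.5% and 49.7% in the H929 and KMS28BM sets. Genes at or below that GC content had a median log2 ratio of -0.64 in H929 (194 genes) and 0.65 in KMS28BM (183 genes). IGHA1, at 63.7% GC, lies at the other end.

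With a cubic trend in GC content and length removed (an alternative chosen with the data in view) the abundant chain genes came closer to 0 or changed sign. In H929 the log2 ratio became 0.22 for IGHA1, 0.07 for IGKC, 0.18 for IGKV1-6, 0.10 for IGHV1-69D and -0.26 for IGHA2. In KMS28BM it became 0.06 for IGLC3, 0.18 for IGLC2, 0.18 for IGLV3-10 and 0.20 for IGKC, so the slight decrease there turned into a slight increase. JCHAIN kept its direction in both lines, at -0.52 and 0.25. IGKC, IGLC2 and IGLC3 have 462 to 523 annotated bases, and the V genes IGKV1-6, IGLV3-10 and IGHV1-69D have 380 to 411. Only 44 and 46 genes under 600 bases entered the fits, so the trend is thinly supported at the length of all these genes.

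**Figure D4:**
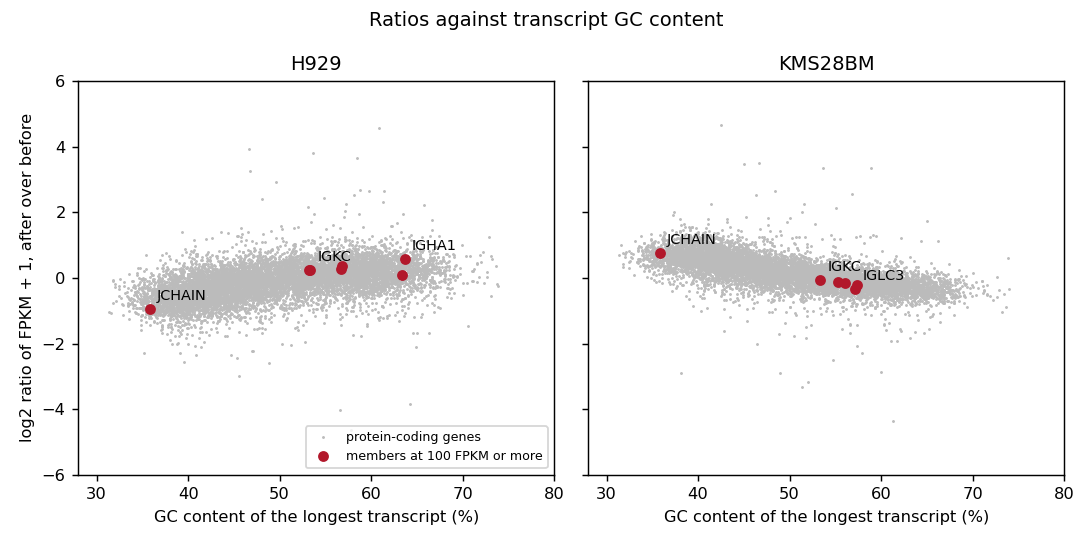
Log2 ratio of FPKM plus 1, after over before sorting (vertical axes), against the GC content of the longest transcript (horizontal axes, percent) for protein-coding genes (grey) and members at 100 FPKM or more (red) in H929 (left) and KMS28BM (right), 1 library per group. The cloud rises with GC in H929 (rho 0.54) and falls in KMS28BM (rho -0.73), and JCHAIN at 35.8% GC lies at -0.95 and 0.77.

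A change shared by both lines was tested across all genes with limma, with line and sorting as terms and Benjamini-Hochberg adjustment over 12294 genes. It called 0 of 28 members at an adjusted p under 0.05, against 14 genes or 0.114% of all tested. At an unadjusted limma p under 0.05 there was 1 member, IGHJ3P, among 184 genes. The smallest adjusted limma p of a member was 1. IGHA1 had a shared log2 change of 0.05 (SE 0.38), IGKC of 0.10 (SE 0.35) and JCHAIN of -0.09 (SE 0.39), where the opposite signs of the lines cancel. The fit has 1 residual degree of freedom per gene, and an absence of calls does not show that levels were the same. In the authors' deposited table, whose test no source used here states, the smallest q of a member was 0.740 in H929, for IGHE, and 0.998 in KMS28BM.

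Genes that make, process and fold immunoglobulin were listed for comparison. Of 8 measured genes of immunoglobulin transcription and processing, 0 were 2-fold higher and 2 lower in H929 after sorting, with a median log2 ratio of -0.65, and 1 was higher and 0 lower in KMS28BM, with a median of 0.25. ELL2, an elongation factor that promotes the secretory form of the heavy chain transcript, had 10.3 and 31.3 FPKM in H929 after and before sorting, and 17.4 and 6.66 FPKM in KMS28BM. IRF4, a plasma cell transcription factor, had 55.1 and 260 FPKM in H929 and 53.4 and 35.0 FPKM in KMS28BM. Both genes were 2-fold or more lower in H929 after sorting, where 5.17% of all measured genes were, and ELL2 was the higher gene in KMS28BM, where 4.13% were. With the GC and length trend removed, IRF4 stayed past 2-fold in H929 at -1.96, while ELL2 came to -0.95 in H929 and 0.61 in KMS28BM. The list medians then became -0.46 in H929 and 0.11 in KMS28BM.

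All 16 genes of the folding and assembly list were measured. In H929 after sorting 0 were 2-fold higher and 2 lower, where 1.59% and 5.17% of all measured genes were. In KMS28BM 1 was higher and 0 lower, where 4.13% and 1.12% of all measured genes were. The list medians were -0.37 in H929 and 0.27 in KMS28BM, where those of all measured genes were -0.11 and 0.12. HSPA5, the endoplasmic reticulum chaperone BiP that holds free heavy chains, had 307 and 177 FPKM in H929 after and before sorting, and 1181 and 787 FPKM in KMS28BM. HSP90B1, the chaperone GRP94, went opposite ways, with 28.99 and 69.9 FPKM in H929 and 159 and 57.8 FPKM in KMS28BM. ERO1A, an oxidase for disulphide bonds, had 3.45 and 9.58 FPKM in H929 and 15.2 and 7.42 FPKM in KMS28BM. Its KMS28BM fold was 2.05 without the pseudocount, but its log2 ratio of FPKM plus 1 was 0.94, so it was not counted there. With the GC and length trend removed all 3 of these calls were lost: HSP90B1 came to -0.88 and ERO1A to -0.66 in H929, and HSP90B1 to 0.93 in KMS28BM. HSPA5 then passed 2-fold in H929 at 1.02, and the list medians became -0.01 in H929 and -0.12 in KMS28BM.

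In the plasma cell list 10 of 11 genes were measured in each line. In H929 after sorting 0 were 2-fold higher, against 1.59% of all measured genes, and 2 lower (IRF4 and CD38), against 5.17%. In KMS28BM 0 were higher, against 4.13% of all measured genes, and 0 lower, against 1.12%. The list medians were -0.61 in H929 and 0.27 in KMS28BM, where those of all measured genes were -0.11 and 0.12. JCHAIN, itself a member, is in this list. With the trend removed CD38 came to -0.67 in H929, which left 1 gene lower, and the list medians became -0.37 in H929 and 0.10 in KMS28BM. Mature B cell genes were sparse, with 2 of 11 measured in H929 and 4 in KMS28BM. On the scale of FPKM plus 1, 0 were 2-fold apart in either. Without the pseudocount, the after-to-before fold was 0.429 for BACH2 in H929 and 0.472 for SPIB in KMS28BM. The summed level of the list was 2.52 and 5.25 FPKM in H929 after and before sorting, and 11.7 and 10.1 FPKM in KMS28BM. Of the KMS28BM sum, CR2, the complement receptor CD21, gave 7.25 and 4.41 FPKM. Of the T cell list 0 of 7 were measured, with summed levels of 0.819 and 0.768 FPKM in H929 and 0.446 and 0.0551 FPKM in KMS28BM.

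For rearrangement and switching, 1 of 6 genes was measured in H929 and 2 in KMS28BM, with 0 at 2-fold apart. RAG2 and DNTT, which help to cut and extend antigen receptor genes, were listed at the floor in all 4 libraries, and the repair enzyme UNG had 14.1 and 10.8 FPKM in H929 after and before sorting and 21.9 and 22.1 FPKM in KMS28BM. Of the 8 receptor and partner genes, 3 were measured in each line and 0 were 2-fold apart on the scale of FPKM plus 1. The transferrin receptor TFRC, which also binds polymeric IgA1, had 14.5 and 11.3 FPKM in H929 and 16.4 and 8.08 FPKM in KMS28BM. Its KMS28BM fold without the pseudocount was 2.04. FCMR, the Fc receptor for IgM, had 10.2 and 14.3 FPKM in H929, against 0.0876 and 0.0628 FPKM in KMS28BM. Of the surrogate light chain list, 2 of 4 were measured in H929 and 1 in KMS28BM, with 0 at 2-fold apart on the scale of FPKM plus 1. The H929 fold of VPREB3 without the pseudocount was 0.440.

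Around the level threshold of 1 FPKM the members just inside, by their highest library, were IGKV1D-17 at 1.14 FPKM, IGLC7 at 1.18 and IGHGP at 1.25. Just outside stood IGHG2 at 0.991 FPKM, IGLV3-1 at 0.758 and the orphon IGLVIVOR22-2 at 0.698.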

How the data were processed

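Human multiple myeloma cells of 2 lines were measured by paired-end sequencing of polyadenylated RNA, 1 library per line and sorting label, per the labels' protocols. The deposited values are FPKM for 60612 Ensembl genes, 1 table per line, per the file headers. The authors also deposited fold ratios, log2 fold changes, p-values and q-values, whose test no source used here states. Bowtie 0.12.2, HISAT2 2.0 and StringTie 1.3.0 are named without roles, per the submitters' processing notes, which also give the mouse build mm8, although the gene IDs are human. The members and lists were chosen with earlier results of these data known.

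Sums, shares and ratios were computed from FPKM. Log2 ratios used FPKM plus a pseudocount of 1 where either library of the line reached 1 FPKM, and were counted at 2-fold; on this scale the change of low genes is understated. For the shared change, limma 3.58.1 (R 4.3.3) was fitted with a trend and checked on simulated data. Depth came from the pile-up, within 1%, of FPKM times length at 1 fragment, and no interval is given because fragments are not independent molecules. The worth in fragments of a value covers counting only. Transcripts, coordinates, GC content and 50-base words came from GENCODE release 29 by gene ID, for 58394 IDs. Named genes were the top 3 V genes and all C, D and J genes per locus and line, JCHAIN, the 5 highest and 5 lowest ratios per line, the 3 members on either side of the threshold, and up to 4 list genes by level with any at 2-fold; some are given by count, and IGLL5 relatives and receptors were added as examples after their values were seen. Some genes that the rule names are left out of the text. Alternatives were pseudocounts of 0.1 and 5, a minimum of 5 FPKM, a 1.5-fold threshold, centring, no trend in limma, other denominators and gene sums, transcript length and, added after the data were seen, removal of a GC and length trend and sums without JCHAIN or with IGLL5. Software also included Biopython 1.88, matplotlib 3.10.9, SciPy 1.17.1, pandas 2.3.3 and numpy 2.4.6 under Python 3.11.15.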

Additional observations from a re-analysis of the deposited data

Results flagged for a closer look

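The following results had opposite signs in the 2 lines, library labelled after over library labelled before sorting, and the difference between lines was not tested, with 1 library per group. The log2 ratio of JCHAIN was -0.954 in H929 and 0.773 in KMS28BM. That of IGHA1 was 0.562 in H929 and -0.464 in KMS28BM, where IGHA1 was at 5.05 and 7.35 FPKM after and before sorting. IGKC had 0.253 in H929 and -0.0509 in KMS28BM, and IGLC2 had 0.806 in H929, at 9.69 and 5.11 FPKM, and -0.218 in KMS28BM. The immunoglobulin share, JCHAIN included, after minus before sorting was 1.32 percentage points in H929 and -0.192 in KMS28BM. As a share of estimated fragments it was 1.99% and 1.58% in H929 after and before sorting. The same share was 0.955% and 0.924% in KMS28BM, so both lines were then higher after sorting. In KMS28BM JCHAIN was the worth of 81928 and 43462 fragments, while IGLC3 was lower after sorting, at 59850 and 68550. With the GC and length trend removed, IGKC and IGLC2 were above 0 in both lines, at 0.07 and 0.20 for IGKC and 0.57 and 0.18 for IGLC2, H929 first. IGHA1 then had 0.22 in H929 and -0.03 in KMS28BM, and JCHAIN -0.52 and 0.25.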

How the results depend on the processing

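The shared test, with line as a term, sets after against before sorting within each line. Beyond it, no paired analysis was possible because each group holds 1 library and the labels give no replicate numbers, and no library could be left out within a group. The immunoglobulin share, in the order H929 after, H929 before, KMS28BM after and KMS28BM before sorting, was 8.78%, 7.70%, 6.25% and 6.45% without mitochondrially encoded transcripts in the denominator and 6.84%, 5.35%, 4.005% and 4.51% without JCHAIN. With IGLL5 it was 7.58% and 6.198% in H929 and 4.91% in KMS28BM before sorting. Light over heavy, in the same order, was 1.12, 1.33, 1722 and 1267 over all chain segments and 0.447, 0.542, 630 and 472 with FPKM times length; with IGLL5 it was 1.33 and 1.63 in H929. Members 2-fold higher in H929 numbered 0 with a pseudocount of 5 or a 5 FPKM minimum and 5 at 1.5-fold, and those lower numbered 0 with a pseudocount of 5 or with the GC and length trend removed, which has no value for segments under 250 bases. In KMS28BM 1 member, JCHAIN, was higher at 1.5-fold. The shared test called 4 genes with a pseudocount of 0.1 and 24 with the 5 FPKM minimum. It called 0 members under each alternative run. Leaving out V genes with over 20% of words shared removes IGHV1-69D and IGKV1-6 themselves, so it gives no value for them. Depth limits the segments and low genes, many of which are the worth of fewer than 10 fragments.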
